A study of Mus musculus with 7 samples.

Results

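Mural cells wrap the outside of the brain's small vessels, and 10 genes by which they are known were followed here: 6 of pericytes (Vtn, Rgs5, Kcnj8, Abcc9, Pdgfrb and Cspg4) and 4 of vascular smooth muscle (Acta2, Tagln, Myh11 and Des). They were taken by symbol from the 32531 genes of the count tables, and all 10 passed the filter on low counts, as did 17375 genes in all. The libraries come from tissue around the ventricles of adult Dcdc2a-EGFP/Rpl10a mice of the TRAP line ES2575, in which a transgene under Dcdc2a control puts EGFP on the ribosomal protein Rpl10a. Beads with anti-EGFP antibodies pull down the tagged polysomes (translating ribosome affinity purification, TRAP), giving 3 libraries of ribosome-bound RNA (IP 1, IP 3 and IP 4), and 4 libraries hold total RNA of the tissue (Inputs 1 to 4). The line is shared by both groups, so the Inputs carry the tag as well and no untagged control was analysed here. The labels give neither the animals behind each library nor the cells in which the transgene is active besides the ependymal cells that the series is about, so p-values measure only the spread between these libraries.

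Pericytes sit in the basement membrane of capillaries and are kept there by platelet-derived growth factor B, which endothelial cells release and the receptor Pdgfrb on pericytes binds. Smooth muscle cells form rings around arterioles and contract with a machinery of alpha actin, smooth muscle myosin and the intermediate filament desmin. Many smooth muscle genes are switched on by serum response factor, which binds a short DNA element called the CArG box. Around the ventricles such vessels lie below the ependyma, in the choroid plexus and in the adjoining meninges.

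Counts assigned to genes ranged from 37203427 to 52175180 per library. At this depth 3 counts are worth 0.0575 to 0.0806 CPM (counts scaled to the library's total) before further scaling, counting error only. IP 1 stood apart from the other IPs: 18.4% of all its counts fell in no annotated gene, just above the 15.2% to 18.2% of the Inputs, against 8.85% in IP 3 and 8.14% in IP 4. Counts for alignments that were not unique made up 29.6% of IP 3 and 39.3% of IP 4, against 19.8% of IP 1 and 20.9% to 21.2% of the Inputs. The part of these differences in the mural values was not tested. Counts that could be assigned to more than 1 gene made up 1.51% to 2.01% of the IPs and 9.33% to 12.9% of the Inputs, a difference between library kinds that cannot be told apart from the groups. The 12 ependymal markers had a median log2 ratio to the mean Input (the log2 CPM less its mean over the 4 Inputs, prior count 2) of 2.82 in IP 1, 6.43 in IP 3 and 5.99 in IP 4. They were chosen with earlier results of these data known, so these markers are no independent check of the pull-down. Of these markers 11 were higher in IP (adjusted p under 0.05 in edgeR's quasi-likelihood test, by Benjamini and Hochberg's method over all tested genes). Dcdc2a, whose control regions drive the tag, measured 43.6, 412 and 174 CPM in IP 1, IP 3 and IP 4 and 27.7, 35.6, 73.9 and 44.2 CPM in Inputs 1 to 4, so that IP 1 was within the Input range. IP and Input of the same number share a sequencing lane, so for the members ratios within a lane are given beside the pooled folds. Dcdc2a was at 1.57, 5.57 and 3.95 times the Input of its lane for numbers 1, 3 and 4.

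Of the 10 mural genes 3 rose in IP against Input: Vtn, Acta2 and Tagln. Of all tested genes 3.64% were called higher and 2.16% lower. All 10 had a positive log2 fold, as did 53.1% of all genes, with a median of 2.54 against 0.06 over all genes. At an unadjusted p under 0.05, 8 were higher, as were 13.3% of all genes. Every IP lay above every Input for 5 of the 10 (Vtn, Kcnj8, Cspg4, Acta2 and Tagln), as for 9.55% of all tested genes, and IP 3 and IP 4 both did for 8, as for 22.2%. Only Myh11 and Des did not reach even that. Kcnj8 and Des reached the minimum count of 10 in too few Inputs to pass the low-count filter without the IPs. Their part in the counts of this paragraph is therefore no independent support for a rise. In IP 1, 6 of the 10 were above every Input and 4 lay within the Input range. The same count over all genes was not made, so these 6 have no background share beside them. The 3 calls depended on the libraries. With the replicate number (the shared lane) as a block edgeR called 0 of the 10 and 0.553% of all genes. At an unadjusted p under 0.05 in either direction it found 7 of the 10 and 2900 of the 17375 genes. Without IP 4 or any 1 of the Inputs it also called 0, with 7 or 8 at an unadjusted p under 0.05. Of all genes it then called 0.0556% without IP 4, and 0.123%, 0.0704%, 0.0235% and 0.0236% without Inputs 1 to 4. In the fit without IP 4, 3158 of the 17375 genes had an unadjusted p under 0.05 in either direction. In those without Inputs 1 to 4 the numbers were 3092, 3153, 2982 and 3122. DESeq2 called 8 of the 10 and 8.46% of all genes, and edgeR without a filter on low counts 1 of the 10 and 2.33%. Without IP 3 only Vtn passed (edgeR adjusted p = 0.0247), as did 1.91% of all genes. Without IP 1, 7 passed, where 12.5% of all genes were called higher. The folds compare ribosome-bound RNA with total RNA of the tissue. In such bulk RNA the number of cells of a type and the RNA per cell cannot be told apart.

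**Figure D1:**
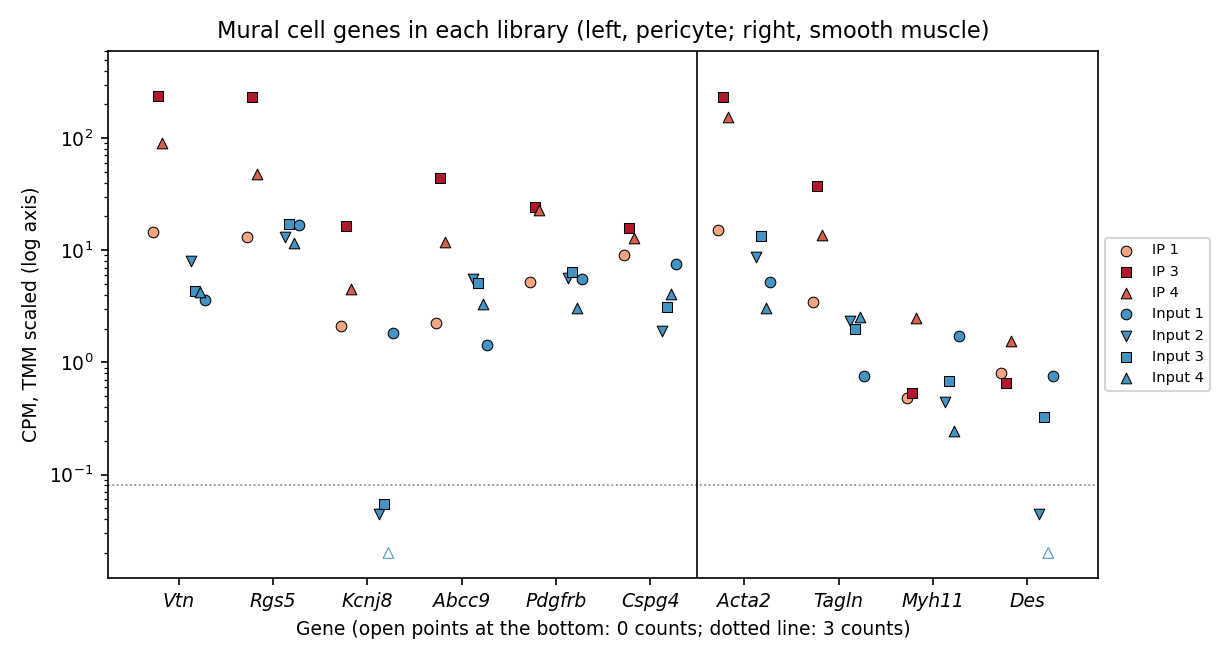
CPM (TMM scaled, log axis) of the 6 pericyte genes and the 4 smooth muscle genes in each of the 7 libraries, 1 point per library. Vtn and Acta2 are each higher in IP 3 and IP 4 than in any other library, while Myh11 and Des stay below 3 CPM in every library, with Des and Kcnj8 at 0 counts in Input 4.

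Among the pericyte genes Vtn stood out. It encodes vitronectin, a glycoprotein that pericytes lay down in the vessel wall and that binds integrins (ENSMUSG00000017344.4, GRCm38 chromosome 11, 78499091 to 78502324, plus strand). Its level was 14.6, 239 and 90.0 CPM in IP 1, IP 3 and IP 4, and 3.60, 8.02, 4.29 and 4.20 CPM in Inputs 1 to 4. Every IP was above every Input, though IP 1 was much nearer to the Inputs than to IP 3. The means were 114 ± 114 CPM over the 3 IPs (SD, n = 3) against 5.03 ± 2.02 over the Inputs (SD, n = 4), a log2 fold of 4.51 ± 0.78 (SE; adjusted p = 0.0185 in edgeR). Within lanes the folds were 4.04, 55.8 and 21.4 for numbers 1, 3 and 4. Per length, Vtn lay between the 33.6th and 50.6th percentile of tested genes in the Inputs, and at the 64.3rd, 98.5th and 94.8th in IP 1, IP 3 and IP 4. The call was lost with the replicate block (edgeR adjusted p = 0.0791) and, narrowly, without a filter on low counts (edgeR adjusted p = 0.0509).

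Rgs5, a regulator of G protein signalling that is among the most used pericyte markers, was the next most abundant in IP 3 (ENSMUSG00000026678.10, chromosome 1, 169655501 to 169695813, plus strand). It measured 13.0, 233 and 48.0 CPM in IP 1, IP 3 and IP 4, and 16.8, 13.1, 17.2 and 11.6 CPM in Inputs 1 to 4. IP 1 lay inside the Input range, and the other IPs above it. The log2 fold of 2.74 ± 0.76 did not pass (SE; adjusted p = 0.0692 in edgeR), and without IP 1 it was 3.26 (edgeR adjusted p = 0.00131). Within lanes Rgs5 was at 0.775 times the Input level for number 1, with a 95% interval for counting error alone of 0.695 to 0.864, and at 13.6 and 4.14 times for numbers 3 and 4. Rgs5 was thus below the Input of its lane for number 1 and above it for numbers 3 and 4. The spread between the Inputs, which that interval does not measure, covers the level in IP 1.

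Kcnj8 and Abcc9 encode the pore (Kir6.1) and the sulfonylurea receptor (SUR2) of the ATP-sensitive potassium channel of pericytes and vascular muscle, and lie 16247 bases apart on chromosome 6 (Kcnj8, ENSMUSG00000030247.9, 142564837 to 142571614; Abcc9, ENSMUSG00000030249.15, 142587862 to 142702315; both minus strand). Kcnj8 measured 2.12, 16.5 and 4.51 CPM in IP 1, IP 3 and IP 4. In Inputs 1 to 4 it had 74, 2, 2 and 0 counts, so that Input 1, at 1.81 CPM, was close to IP 1 and the other Inputs held almost none. Its log2 fold of 4.0 ± 1.56 did not pass (SE; adjusted p = 0.166 in edgeR). Within lanes Kcnj8 was 1.17 times its Input for number 1 (counting interval 0.861 to 1.60) and 302 times for number 3, on 2 Input counts (83.3 to 2500). For number 4 the Input held 0 counts, and with the floor of 3 counts in their place the ratio was 61.1. The exact counting interval there starts lower, at 49.3. Leaving out Input 1 moved its log2 fold to 7.75 (edgeR adjusted p = 0.0556).

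Abcc9 was at 2.24, 44.2 and 11.8 CPM in IP 1, IP 3 and IP 4, and at 1.42, 5.54, 5.13 and 3.29 CPM in Inputs 1 to 4. IP 1 was again within the Input range and both other IPs above it. Against the Input of its lane, Abcc9 was at 1.58 times for number 1 (counting interval 1.14 to 2.20), and at 8.62 and 3.59 times for numbers 3 and 4. Its log2 fold was 2.34 ± 0.83 (SE; adjusted p = 0.133 in edgeR), and 2.86 without IP 1 (edgeR adjusted p = 0.00183). Of its exon length 1.89% overlaps the opposite-strand gene 5330439B14Rik, and how strand was treated is not given in the sources used here. Per length, Kcnj8 and Abcc9 were of like level in IP 3 and IP 4, at ratios of 1.23 and 1.25, whereas in Inputs 2 to 4 Kcnj8 was at 0.0265, 0.035 and 0 of Abcc9. In IP 1 and Input 1 Kcnj8 was above Abcc9, at ratios of 3.11 and 4.19. The 2 subunits of the neuronal and endocrine form of the same channel were called by neither edgeR nor DESeq2, with 0 at an unadjusted p under 0.05: Kcnj11 (Kir6.2) had a log2 fold of -0.69 ± 0.43 (SE; adjusted p = 0.391 in edgeR) and Abcc8 (SUR1) one of 0.55 ± 0.64 (SE; adjusted p = 0.678 in edgeR). Without IP 1 Kcnj11 was called lower, at -1.23 (edgeR adjusted p = 0.039), and Abcc8 was at 0.02. Without IP 3 Abcc8 was at 1.06 (edgeR adjusted p = 0.0925).

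Pdgfrb, the receptor through which vessels recruit pericytes, had a smaller fold than these (ENSMUSG00000024620.11, chromosome 18, 61045150 to 61085061, plus strand). It had 5.23, 24.2 and 22.8 CPM in IP 1, IP 3 and IP 4, and 5.59, 5.70, 6.39 and 3.07 CPM in Inputs 1 to 4. IP 1 did not leave the Input range, while IP 3 and IP 4 were nearly equal and above it. Folds within lanes were 0.935, 3.79 and 7.42 for numbers 1, 3 and 4. The log2 fold was 1.75 ± 0.53 (SE; adjusted p = 0.0818 in edgeR), and 2.18 without IP 1 (edgeR adjusted p = 0.000998). Of the 5 genes for other platelet-derived growth factors and their second receptor, 0 passed in edgeR (0 at an unadjusted p under 0.05, and 0 called by DESeq2), with a median log2 fold of 0.24. The ligand Pdgfb had a log2 fold of -0.40 ± 0.53 (SE; adjusted p = 0.720 in edgeR). Pdgfra, which marks fibroblasts and oligodendrocyte precursors, had 0.35 ± 0.36 (SE; adjusted p = 0.627 in edgeR), and the ligand Pdgfd, with 2.02 ± 0.93, had the smallest p of these genes (SE; adjusted p = 0.230 in edgeR). Without IP 1 Pdgfra passed, as 1 of the 5, at 0.70 (edgeR adjusted p = 0.0388).

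Cspg4, the proteoglycan NG2 on pericytes and on oligodendrocyte precursors, had 9.07, 15.6 and 12.8 CPM in IP 1, IP 3 and IP 4, and 7.48, 1.90, 3.11 and 4.10 CPM in Inputs 1 to 4 (ENSMUSG00000032911.6, chromosome 9, 56865033 to 56899870, plus strand). The groups did not overlap, and the IPs were closer together than for any other member of the pericyte genes, but Input 1 came near to IP 1. Folds within lanes were 1.21, 5.02 and 3.12 for numbers 1, 3 and 4. The log2 fold of 1.59 ± 0.51 did not pass (SE; adjusted p = 0.0968 in edgeR), and was 1.77 without IP 1 (edgeR adjusted p = 0.024). Of 10 markers of oligodendrocyte precursors 0 were called in edgeR (2 at an unadjusted p under 0.05, and 1 called lower by DESeq2), with a median of -0.02. Without IP 1, 1 was called higher and 1 lower. Their summed level was 232 to 365 CPM in the IPs and 289 to 444 in the Inputs.

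The smooth muscle genes fell into 2 pairs: Acta2 and Tagln rose, and Myh11 and Des did not pass. Per length, Myh11 and Des lay at or below the 13.5th percentile of tested genes in every library. Acta2, smooth muscle alpha actin (ENSMUSG00000035783.9, chromosome 19, 34241090 to 34255590, minus strand), had 15.1, 231 and 154 CPM in IP 1, IP 3 and IP 4, and 5.20, 8.72, 13.3 and 3.07 CPM in Inputs 1 to 4. Every IP was above every Input, with IP 1 only slightly above Input 3. The means were 133 ± 110 CPM over the 3 IPs (SD, n = 3) against 7.56 ± 4.46 over the Inputs (SD, n = 4), a log2 fold of 4.14 ± 0.82 (SE; adjusted p = 0.0262 in edgeR). Within lanes the folds were 2.90, 17.4 and 50.1 for numbers 1, 3 and 4. The call was lost with the replicate block (edgeR adjusted p = 0.103), without a filter on low counts (edgeR adjusted p = 0.0807) and without IP 3 (edgeR adjusted p = 0.0597). Actins are a family of close copies, yet only 7 of 2146 windows of 50 bases in the Acta2 transcripts, and 0 of 2096 of 100 bases, occur in transcripts of other genes.

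Tagln, transgelin or SM22, an actin-binding protein of smooth muscle (ENSMUSG00000032085.5, chromosome 9, 45929619 to 45936058, minus strand), had 3.44, 37.2 and 13.6 CPM in IP 1, IP 3 and IP 4, and 0.760, 2.35, 1.99 and 2.53 CPM in Inputs 1 to 4. All IPs were above all Inputs. The log2 fold was 3.24 ± 0.73 (SE; adjusted p = 0.0341 in edgeR), and the block ended the call (edgeR adjusted p = 0.0911). Within lanes the folds were 4.53, 18.7 and 5.39. Tagln overlaps Pcsk7 on the other strand over 5.43% of its exon length, and a further antisense model, Gm48529, over 62.4%, which has no line in the tables. Of 1983 windows of 50 bases in its transcripts, 1157 occur in transcripts of other genes on either strand. As the strand setting is not given, the call of Tagln is uncertain. The part of this overlap in its values was not tested.

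Myh11, the heavy chain of smooth muscle myosin (ENSMUSG00000018830.10, chromosome 16, 14194535 to 14291372, minus strand), had 24, 24 and 128 counts in IP 1, IP 3 and IP 4 (0.481, 0.529 and 2.50 CPM), and 70, 20, 25 and 10 in Inputs 1 to 4. IP 4 was the highest library and Input 1 the next, so the groups overlapped. The log2 fold of 0.60 ± 1.10 did not pass (SE; adjusted p = 0.809 in edgeR), and without IP 4 it was -0.61 (edgeR adjusted p = 0.862). Within lanes Myh11 was at 0.280 times the Input for number 1 (counting interval 0.168 to 0.451), 0.774 times for number 3 (0.424 to 1.41) and 10.2 times for number 4 (5.35 to 21.7).

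Des, the muscle intermediate filament desmin (ENSMUSG00000026208.9, chromosome 1, 75360329 to 75368579, plus strand), had 40, 30 and 80 counts in IP 1, IP 3 and IP 4 (0.801, 0.661 and 1.56 CPM), and 31, 2, 12 and 0 in Inputs 1 to 4. Input 1, at 0.760 CPM, was above IP 3. Against the Input of its lane, Des was at 1.05 times for number 1 (counting interval 0.643 to 1.74) and 2.02 times for number 3. For number 4, with 0 Input counts, the counting interval starts at 16.8. The log2 fold was 1.82 ± 1.44 (SE; adjusted p = 0.511 in edgeR). Of its exon length 5.86% overlaps the antisense gene Gm15179. Among 5 partners of desmin in the filament network, Vim, the filament protein vimentin of mesenchymal and glial cells, was called, at 3.56 ± 0.67 (SE; adjusted p = 0.0231 in edgeR, and 0.174 with the block), and Nes, the filament protein nestin, had 3.78 ± 1.27 (SE; adjusted p = 0.112 in edgeR). Nes was called by DESeq2 (adjusted p = 0.0129) and by edgeR without IP 1 (adjusted p = 0.0142). Without Input 4 its log2 fold was 6.23 (edgeR adjusted p = 0.0518). The median of the 5 was 1.17, and 3 were called without IP 1.

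**Figure D2:**
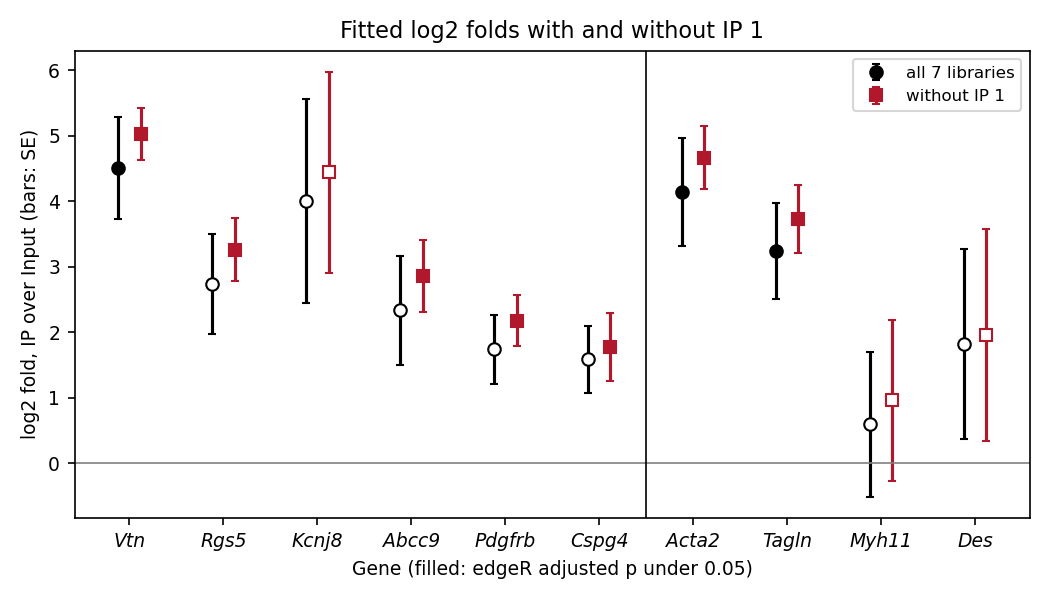
Log2 fold of IP over Input from edgeR for each mural gene (points) with its SE (bars), over all 7 libraries (black circles) and without IP 1 (red squares); filled symbols passed an adjusted p of 0.05. Vtn, Acta2 and Tagln are filled in both, Rgs5, Abcc9, Pdgfrb and Cspg4 only without IP 1, and Kcnj8, Myh11 and Des in neither.

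Promoters of Acta2 and Vtn, the most abundant member of each class in IP, are shown because the smooth muscle class is the textbook target of serum response factor. They run from 250 bases before to 50 after the RefSeq start (GRCm38.p6; Acta2, chr19:34255324-34255623, minus strand; Vtn, chr11:78498870-78499169, plus strand), and capitals mark matches to the CArG box with at most 1 mismatch.
Acta2: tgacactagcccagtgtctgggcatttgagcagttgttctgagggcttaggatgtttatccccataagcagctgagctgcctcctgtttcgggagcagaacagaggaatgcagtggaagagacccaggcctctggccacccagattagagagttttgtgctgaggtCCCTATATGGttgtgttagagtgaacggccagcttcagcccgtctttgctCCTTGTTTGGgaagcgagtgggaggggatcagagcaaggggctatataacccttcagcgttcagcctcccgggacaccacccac
Vtn: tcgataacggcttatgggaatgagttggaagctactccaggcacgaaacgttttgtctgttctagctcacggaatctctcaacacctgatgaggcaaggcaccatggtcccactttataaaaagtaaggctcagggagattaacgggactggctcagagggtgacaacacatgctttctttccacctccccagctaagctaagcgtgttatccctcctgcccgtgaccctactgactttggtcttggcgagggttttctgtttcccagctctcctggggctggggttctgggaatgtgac
The CArG box was searched as CC, then 6 bases of A or T, then GG, a pattern that reads alike on both strands. Of the 7 members with a promoter in the RefSeq table (Vtn, Rgs5, Kcnj8, Abcc9, Cspg4, Acta2 and Des) 0 held an exact match, against 1.63% of all 32851 promoters. With 1 mismatch allowed 3 of the 7 had a match, against 21.1% of all promoters. Acta2 had 2 such sites, CCCTATATGG and CCTTGTTTGG, which begin 84 and 34 bases before the start. Kcnj8 had CCTTTTAAAG, and Cspg4 had CCTTAAAATG overlapping CTTAAAATGG. A match describes letters only and is no evidence of binding.

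In the direct contrast, the balance of pericyte to smooth muscle genes was higher in IP 3 than in IP 4, and which of them left the range of the Inputs depended on the scale. The mean log2 ratio to the mean Input, over the genes of a class, was 0.99 for the pericyte genes and 1.01 for the smooth muscle genes in IP 1, 4.05 and 2.81 in IP 3, and 2.75 and 3.13 in IP 4. The pericyte mean less the smooth muscle mean was thus -0.02 in IP 1, 1.24 in IP 3 and -0.39 in IP 4, where single Inputs gave 0.03, 0.10, -0.58 and 0.45. On this scale IP 3 alone lay outside the range of the Inputs. When levels per kilobase were summed within each class, sums of which Vtn and Acta2 made up most in every IP, the log2 difference came to -0.30 for IP 1, -0.25 for IP 3 and -1.13 for IP 4, and the Inputs spanned -0.70 to 0.50. There IP 4 alone was outside, on the smooth muscle side. The same held for medians over the members, with 0.69 in IP 3 and -1.04 in IP 4 against -0.55 to 0.88 in the Inputs, and without Myh11, with 0.24 in IP 3 and -0.78 in IP 4 against -0.72 to 0.37. Without Cspg4 and Pdgfrb, which other cells also express, IP 3 was at 2.18 and IP 4 at -0.01, and the Inputs spanned -0.60 to 0.34. IP 3 was above IP 4 on each of these 5 scales. No test was made of this score.

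On the summed scale, pericyte genes came to 12.9, 186 and 63.3 CPM per kilobase in IP 1, IP 3 and IP 4, and to 8.0, 8.70, 7.95 and 5.92 in Inputs 1 to 4. Smooth muscle genes came to 8.87, 124 and 77.6 CPM per kilobase in the IPs and to 3.18, 5.22, 7.22 and 2.70 in the Inputs. Both sums were above every Input in all 3 IPs. Vtn made up 55.8%, 63.1% and 70.0% of the pericyte sum in the IPs and 22.2% to 45.4% in the Inputs. Acta2 made up 77.3%, 84.8% and 90.2% of the smooth muscle sum in the IPs and 51.7% to 83.7% in the Inputs. Per length, Myh11 was at 0.922%, 0.066% and 0.469% of Acta2 in IP 1, IP 3 and IP 4, below each of the 1.48% to 9.54% of the Inputs.

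**Figure D3:**
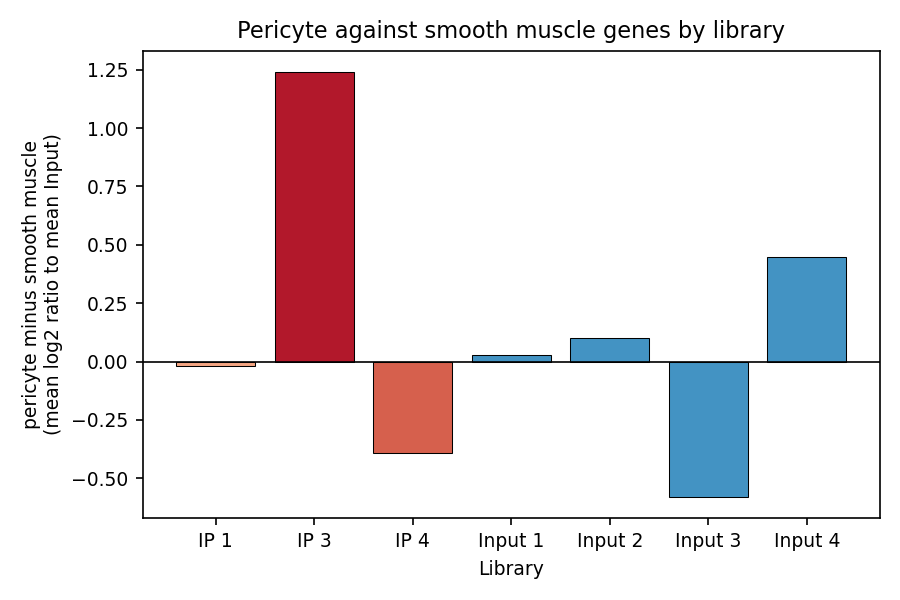
Pericyte minus smooth muscle difference (mean log2 ratio to the mean Input of the 6 pericyte genes less that of the 4 smooth muscle genes) as 1 bar per library. IP 3, at 1.24, is the highest of the 7, while IP 1 and IP 4 lie within the range of the Inputs, -0.58 to 0.45; on the summed scale IP 4 is the library outside.

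The members also differed in how IP 3 compared with IP 4, libraries without replicates of their own. Rgs5, Abcc9 and Kcnj8 were 4.86, 3.75 and 3.66 times as high in IP 3 as in IP 4, and Tagln and Vtn 2.73 and 2.65 times. Acta2 was 1.5 times as high, and Cspg4 1.22 times. Pdgfrb, at 1.06 with a counting interval of 0.977 to 1.15, did not differ beyond counting error. Myh11 and Des were lower in IP 3, at 0.212 and 0.423 times their IP 4 level. For comparison, the driver gene Dcdc2a was 2.36 times as high in IP 3 as in IP 4, and the ependymal transcription factor Foxj1 0.806 times.

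**Figure D4:**
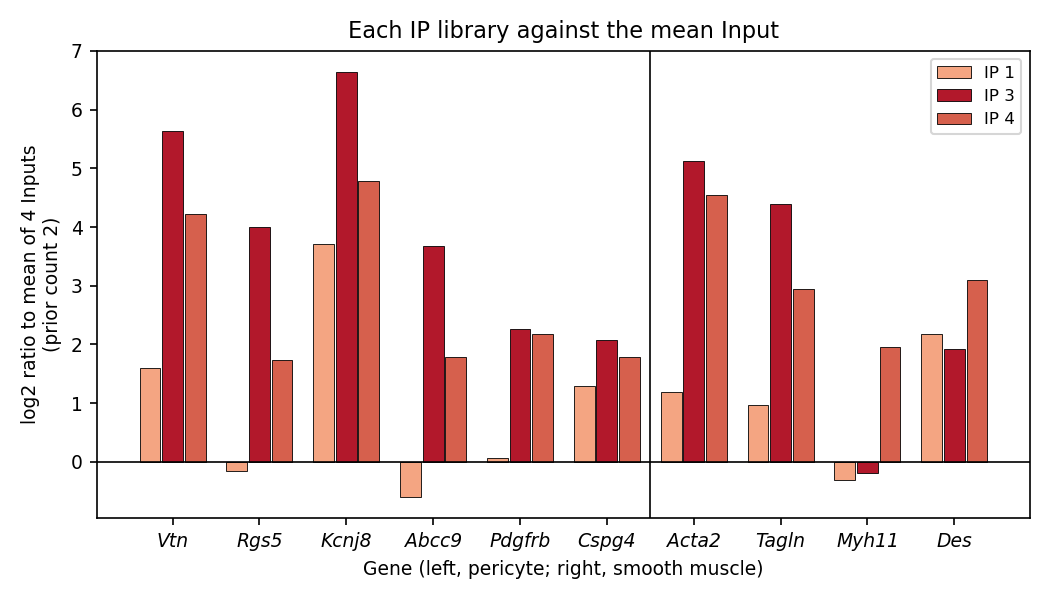
Log2 ratio of each IP library to the mean of the 4 Inputs (prior count 2) for each mural gene, with 1 bar per IP. In IP 3 the ratios of Vtn, Rgs5, Kcnj8, Abcc9, Acta2 and Tagln lie between 3.68 and 6.64, whereas in IP 1 those of Rgs5, Abcc9 and Myh11 are below 0.

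Other genes of the same cells were taken from lists that hold no member. The shares over all tested genes to set beside these lists are 3.64% higher, 2.16% lower and 53.1% with a positive fold. Of 18 further pericyte genes 2 were higher, 0 lower and 16 had a positive fold, with a median of 1.92. These 2 were Slc6a20a, a proline transporter whose exons overlap antisense models and Ccr9 (2.87 ± 0.63 SE; adjusted p = 0.0319 in edgeR), and Ifitm1, an interferon-induced membrane protein (3.19 ± 0.78 SE; adjusted p = 0.0416 in edgeR). Anpep, aminopeptidase N of brain pericytes, had a log2 fold of 2.14 ± 0.80 (SE; adjusted p = 0.144 in edgeR) and Notch3, the Notch receptor of mural cells, 1.11 ± 0.64 (SE; adjusted p = 0.347 in edgeR). Without IP 1, 8 of the 18 were called higher, Anpep among them (edgeR adjusted p = 0.00702), as were 12.5% of all genes. With the block or without any 1 other library 0 of the 18 were.

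Of 20 further genes of the smooth muscle contractile apparatus 5 were higher and 1 was lower, with a median of 0.41. A positive fold was found for 11 of the 20, against 53.1% of all tested genes. Relative to the mean Input, the list's log2 medians by library were 0.44 (IP 1), 0.36 (IP 3) and 0.19 (IP 4). Cald1, the actin-binding caldesmon, rose from 17.6 ± 1.20 CPM in Input (SD, n = 4) to 251 ± 214 in IP (SD, n = 3), a log2 fold of 3.83 ± 0.63 (SE; adjusted p = 0.0166 in edgeR). Myl9, a regulatory light chain of smooth muscle myosin, rose by 4.50 ± 0.88 (SE; adjusted p = 0.0253 in edgeR). Cnn1, calponin, had a log2 fold of 5.17 ± 1.30 (SE; adjusted p = 0.0455 in edgeR). It had 0, 3, 7 and 3 counts in Inputs 1 to 4 and 74, 292 and 66 in IP 1, IP 3 and IP 4. With every Input under the minimum count of 10, Cnn1 passed the low-count filter through the IPs alone. The Myl9 promoter was the only 1 among 18 genes of this list in the RefSeq table with an exact CArG box. The others called were Sncg, Casq2 and, lower, Pln, the calcium pump inhibitor phospholamban (-3.82 ± 0.95 SE; adjusted p = 0.0442 in edgeR), named after their values were seen; Pln overlaps Cep85l and Gm47644 and is uncertain. Actg2, enteric smooth muscle actin, had -1.67 ± 1.90 (SE; adjusted p = 0.670 in edgeR), on at most 0.521 CPM in any IP. The block ended all these calls, and without IP 3, 1 of the 20 was called higher, and without IP 4 or any 1 Input 0.

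The transcriptional partners of the contractile programme were not called. Of 4 genes for serum response factor and its cofactors 3 were tested, and edgeR and DESeq2 each called 0 (1 at an unadjusted p under 0.05). Srf itself had a log2 fold of 0.68 ± 0.29 (SE; adjusted p = 0.188 in edgeR), and Mkl2, a cofactor of Srf, had 0.03 ± 0.19 (SE; adjusted p = 0.954 in edgeR), with its sign reversed without IP 4 or Input 3. Myocd, the cofactor most specific to smooth muscle, was too low to test, at 0.801, 0.0661 and 0.8 CPM in the IPs and at most 0.221 in the Inputs. Of 4 other actins 3 were tested and 0 called by edgeR (1 at an unadjusted p under 0.05), with Acta1 of skeletal muscle at -2.49 ± 0.84 (SE; adjusted p = 0.112 in edgeR) and the cytoplasmic Actb at 0.39 ± 0.25 (SE; adjusted p = 0.401 in edgeR). DESeq2 called Acta1 lower (adjusted p = 0.00466). Without IP 1 edgeR called 2 of the 3, Actb higher at 0.62 (edgeR adjusted p = 0.0153) and Acta1 lower at -2.96 (edgeR adjusted p = 0.0408), and without IP 3 Actb was at 0.04.

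Markers of the cells next to mural cells split. Of 12 markers of leptomeningeal fibroblasts 9 were higher. Their median log2 fold was 3.68, with medians of 1.12, 4.70 and 4.06 in IP 1, IP 3 and IP 4. Their summed level was 1151 to 8288 CPM in the IPs and 630 to 963 in the Inputs, and 0 of the 12 were at 0 in every IP. Foxc1 and Aldh1a2, the transcription factor and the retinoic acid enzyme of meningeal fibroblasts, had log2 folds of 4.19 ± 0.57 and 4.27 ± 0.63 (SE; adjusted p = 0.0105 and 0.0129 in edgeR). Fibroblasts can express Pdgfrb, Acta2 and Tagln, and the part of fibroblasts and of ependymal cells in the mural values was not tested. Of 12 endothelial markers 1 was higher, Cdh5 (3.66 ± 0.84 SE; adjusted p = 0.0356 in edgeR). Their median was -0.21, with a summed level of 19.1 to 38.1 CPM in the IPs and 22.6 to 32.4 in the Inputs. The ependymal list, whose median log2 fold was 5.62, summed to 244 to 3270 CPM in the IPs and 32.0 to 56.5 in the Inputs. In all 3 lists, as in both classes of mural genes, IP 1 had the lowest sum of the IPs. With the block 2 fibroblast, 0 endothelial and 7 ependymal markers were called. Leaving out IP 1 gave 12, 1 and 11 in the same order. Without IP 4 or any 1 Input at most 2 fibroblast and 3 ependymal markers were.

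**Figure D5:**
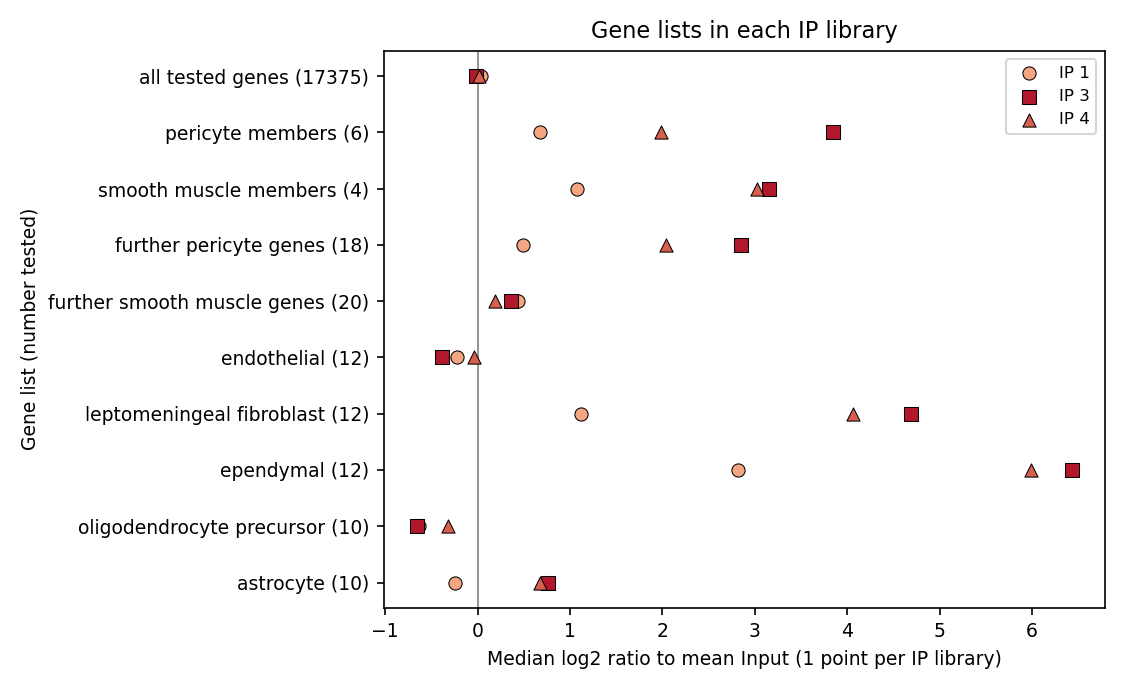
Median log2 ratio to the mean Input for gene lists, 1 point per IP library, with the number of genes tested in brackets. The pericyte and smooth muscle members (0.68 to 3.84 and 1.08 to 3.15) lie between all tested genes, near 0, and the ependymal markers (2.82 to 6.43), while the endothelial list lies between -0.39 and -0.04.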

How the data were processed

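The deposited files hold whole-number counts per gene from HTSeq, on reads aligned with STAR 2.0.0e to mm10, per the submitters' processing notes; for the annotation, strand setting, kit and HTSeq version, the entry is: not given in the sources used here. The 7 files are 1 library each: 3 IP and 4 Input, 37203427 to 52175180 counts in genes. Counts outside genes (no feature, ambiguous, not unique and the like) made up 40.1% to 52.1% of the counts in each file and were left out.

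The counts as deposited were tested with edgeR 4.0.16 in R 4.3.3 (quasi-likelihood test, TMM scaling, filterByExpr with a minimum count of 10 and total of 15, robust fit, Benjamini-Hochberg adjustment over 17375 genes, threshold 0.05), and an SE is the log2 fold over the square root of F. CPM are TMM scaled; log2 ratios use a prior count of 2. Alternatives were DESeq2 1.42.0, total-count scaling, no filter, the replicate number as a block, and leaving out each library. Same-numbered IP and Input share a lane per the labels. Their deviations from the group means correlated at 0.0318, 0.0426 and 0.0258 across genes. Pairs of different number lay lower, from -0.0391 to 0.0119. No label ties a number to an animal.

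Lengths and positions are from GENCODE M21 (GRCm38) by symbol; of 32531 symbols 23113 matched 1 gene. Promoters are RefSeq's. Protein sequences were not used here. The members and lists were chosen with earlier results of these data known. Named genes are the members, the 2 genes with the smallest p of each list, direct partners of the members, Dcdc2a and Foxj1; any other gene is marked as picked with its values known. Within-lane intervals are exact 95% intervals for counting error only.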

Additional observations from a re-analysis of the deposited data

Results flagged for a closer look

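In 5 of 39 sets of 4 Inputs examined, 1 library stood apart from the other 3 by Dixon's test. Its nominal rate of about 1 in 20 is for independent, normally distributed values. These sets are CPM from the same 4 Inputs, some on few counts, so the number of flags cannot be read against that rate. Input 1 was the highest for Kcnj8, at 1.81 CPM. Input 2 was the highest for Vtn, at 8.02 CPM, and for Actg2, at 2.77 CPM. Input 4 was the highest for Nes, at 1.62 CPM. Input 3 was the lowest for Pdgfb, at 4.1 CPM.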

How the results depend on the processing

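With the replicate number as a block (pairing by lane), 96 genes were higher and 33 lower, against 633 and 376 without it; 0 of the 10 mural genes were called, and 9 genes of the other lists were higher and 0 lower, against 30 and 4. DESeq2 called 1580 genes higher and 1142 lower, 8 of the 10 mural genes, and 12 genes of the lists lower. Leaving out 1 library gave 4 to 2259 genes higher and 16 to 1724 lower, 0 to 7 mural genes, and 0 to 52 list genes higher and 0 to 16 lower; the most calls came without IP 1. Without the low-count filter 1 mural gene was called. Over 110 alternatives for single mural genes, 78 kept direction and side of the threshold, 22 lost the call, 9 gained it and 1 reversed. All 22 losses fell on Vtn, Acta2 and Tagln, and for each of these most alternatives lost the call. The other 7 genes had no call to lose. Leaving out 1 library gave log2 folds of -0.61 to 1.34 for Myh11 and -0.18 to 0.16 for Mkl2. Signs reversed for Myh11 without IP 4 (-0.61), Actg2 with the block (1.24), and Mkl2 without IP 4 (-0.18) or Input 3 (-0.02). The pericyte minus smooth muscle difference in IP 3 was -0.25 from summed levels, 2.18 without Cspg4 and Pdgfrb, and 0.239 to 2.01 leaving out a library or gene. Promoters of members with a CArG box numbered 0 exactly and 3 with 1 mismatch. The cause of these shifts was not tested. Protein comparisons planned for the channel subunits and actins were not run. Myh11, Des and the Inputs of Kcnj8 and Cnn1 rest on few counts, and 3 libraries of IP limit the rest.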

Other observations

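Signals that pass between endothelium and mural cells, and cells further from the vessels, were measured too. Of 9 tested genes of Notch and angiopoietin signalling edgeR called 0 (3 at an unadjusted p under 0.05, and 3 called by DESeq2), with a median log2 fold of 0.56; without IP 1 it called 4. The Notch targets Hey2 and Hes1 had log2 folds of 2.02 ± 0.67 and 1.49 ± 0.50 (SE; adjusted p = 0.107 and 0.110 in edgeR). Of 4 tested partners of vitronectin edgeR and DESeq2 called 0 (0 at an unadjusted p under 0.05): Plaur, the urokinase receptor, had -2.04 ± 1.47 (SE; adjusted p = 0.461 in edgeR) and Itgb5, an integrin subunit, 0.58 ± 0.44 (SE; adjusted p = 0.490 in edgeR).

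Among glia and neurons, 1 of 10 astrocyte markers was higher, Gfap, with a log2 fold of 1.09 ± 0.25 (SE; adjusted p = 0.0358 in edgeR), and the median of the list was 0.50. Of 10 oligodendrocyte markers 2 were lower, with a median of -0.62: the myelin genes Mobp and Mbp, at -1.17 ± 0.28 and -0.74 ± 0.19 (SE; adjusted p = 0.0406 and 0.0468 in edgeR). Of 10 neuronal markers 1 was lower, with a median of -0.36: Map2, a dendritic microtubule protein, at -1.10 ± 0.17 (SE; adjusted p = 0.0129 in edgeR). Of 10 microglial, 10 choroid plexus and 3 tested blood cell markers edgeR called 0 (1 in each list at an unadjusted p under 0.05; with DESeq2 the counts were 0, 0 and 1), with medians of -0.09, 0.24 and -1.96. Without IP 1 edgeR called 5 astrocyte markers higher and 1 lower, 5 oligodendrocyte and 3 neuronal markers lower, 2 choroid plexus markers higher and 2 blood cell markers lower, and 0 microglial markers (1 at an unadjusted p under 0.05). With the replicate block 0 genes of these lists were called, and 2 astrocyte, 6 oligodendrocyte and 3 neuronal markers had an unadjusted p under 0.05. The same held for 2900 of all 17375 tested genes.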
